A study of Mus musculus with 8 samples.

Results

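A set of 10 genes of the neural lineage, namely Sox1, Pax6, Neurod1, Nes, Tubb3, Nefm, Islr2, Snap25, Cplx2 and Slc1a2, was followed through 8 mouse RNA sequencing libraries. They are 10 of the 24888 gene symbols counted. The genes were chosen from these same data because they differed between expanded potential and embryonic stem cells, were lower in the expanded potential cells with the agonist T09, or were lower in blastoids, with no stated threshold. Those differences are therefore given as descriptions. All 8 libraries came from E14 mouse embryonic stem cells (ESC), kept on gelatin with serum, LIF and the inhibitors CHIR99021 and PD0325901. Expanded potential stem cells (EPSC) had been made from them by 5 passages in serum replacement with LIF, the same 2 inhibitors, JNK Inhibitor VIII, SB203580, A-419259 and XAV939. Blastoids, aggregates that model the blastocyst, were grown from EPSC in microwells with FGF4, heparin and CHIR99021, joined by Y-27632 on the opening day and by BMP4 and A83-01 after it. The libraries were day 5 blastoids of Type I and of Type III, each labelled as coming from T09-treated EPSC, day 2 blastoids from EPSC transfected 48 hours earlier, 1 library with siRNA to the LXR gene Nr1h2 (siNr1h2) and 1 with a control siRNA (siNT), EPSC with T09 for 3 days, untreated EPSC, ESC with T09 for 3 days, and untreated ESC. T09 is T0901317, which activates liver X receptors (LXR), nuclear receptors that bind oxysterols; the labels give its dose in a unit that leaves the concentration unclear. Each group was 1 library of 1 line.

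Neural identity is built in steps. Sox1 and Pax6 encode transcription factors of the early neural plate, and the neural progenitors that carry them also hold nestin, the intermediate filament made from Nes. Proneural factors such as the bHLH protein made from Neurod1 then drive neuronal differentiation, and neurons take up neuron-type tubulin (Tubb3), neurofilaments (Nefm), guidance receptors and the machinery of synaptic release. Pluripotent cells do not normally run this programme in full, and neither do the trophectoderm and primitive endoderm of the blastocyst.

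Levels are in CPM, counts relative to the library total after TMM scaling, which corrects for library composition. Total counts ran from 24666260 to 40781415 per library. With 1 library a group, a difference between libraries could not be tested against culture-to-culture spread, and the 95% intervals given with ratios (exact Clopper-Pearson) and with levels (exact Poisson) cover counting error only. Ratios are on the log2 scale, with a prior count of 2. A gene was called higher or lower at a ratio of 2-fold or more, provided that equality lay outside the interval and 1 of the 2 libraries had 20 counts. The knockdown library held Nr1h2 at 37.7 CPM, against 53.9 CPM in siNT, and the other 6 libraries held at least 52.6 CPM. As a check of T09, a list of 9 LXR genes was summed, holding target genes and the receptor genes Nr1h2 and Nr1h3. The sum was 3511 CPM in T09-treated EPSC and 1110 CPM in EPSC, and 4396 CPM in T09-treated ESC and 1436 CPM in ESC. Type I and Type III blastoids carry the same T09 label, but the sum was 4252 CPM in Type I and 1481 CPM in Type III, so the library labelled Type III stood near the untreated ones; the labels do not say whether T09 was present during blastoid culture. Blastoids differed from the stem cells in make-up: 12 primitive endoderm genes summed to between 4009 and 23488 CPM in the 4 blastoid libraries and to between 261 and 762 CPM in the 4 stem cell libraries. Sums of 12 naive pluripotency genes lay between 724 and 2325 CPM in the blastoid libraries and between 4706 and 7473 CPM in the stem cells. In such bulk samples fewer cells of a type and less RNA per cell cannot be told apart. Among defining neural markers outside the 10, Dcx had between 0 and 14 counts, Hes5 between 0 and 12, S100b and Olig2 between 0 and 5, Gfap between 2 and 17 and Aqp4 between 0 and 33. Other neuronal markers were plainly detected, with Stmn2 between 15.9 and 265 CPM. The untreated EPSC library stood apart in Snap25, Slc1a2 and some low-count synaptic genes described below, such as Syt1. Each result that rests on that library is therefore given beside the T09-treated pair.

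Promoter sequences from RefSeq (build GRCm38.p6, not the mm9 build named for the counts) were matched for 8 of the 10 genes; Nefm and Snap25 had none in the table. The genes with the most parallel levels over the libraries, Sox1 and Tubb3, had promoters rich in CpG, with observed over expected CpG ratios of 1.07 and 0.765, whereas Slc1a2, among the 2 lowest of the 10 per exon length in every library, had 0.0641. The median of all 32851 promoters of 300 bases was 0.384. High ratios were not particular to Sox1 and Tubb3. Neurod1 stood at 0.837, Nes at 0.702, and the 2 promoters of Pax6 at 0.698 and 0.998. The 3 promoters of Islr2 lay between 0.279 and 0.645. Cplx2, whose own highest levels were in day 5 blastoids, stood at 0.432. The 250 bases before the start are shown for Sox1, Tubb3, Slc1a2 and Cplx2, because they cover both ends of that range. Capitals mark the GC box GGGCGG, the E-box CAGCTG, and CAGCACC and GGACAG, on either strand. CAGCACC and GGACAG are the left and right parts of the RE1 element read by the neuronal repressor REST.
Sox1, chr8:12395269-12395518, plus strand: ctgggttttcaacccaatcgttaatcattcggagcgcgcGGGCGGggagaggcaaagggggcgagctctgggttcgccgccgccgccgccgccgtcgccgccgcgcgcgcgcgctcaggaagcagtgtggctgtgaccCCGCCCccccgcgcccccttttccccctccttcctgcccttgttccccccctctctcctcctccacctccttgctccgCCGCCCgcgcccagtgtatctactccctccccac
Tubb3, chr8:123411303-123411552, plus strand: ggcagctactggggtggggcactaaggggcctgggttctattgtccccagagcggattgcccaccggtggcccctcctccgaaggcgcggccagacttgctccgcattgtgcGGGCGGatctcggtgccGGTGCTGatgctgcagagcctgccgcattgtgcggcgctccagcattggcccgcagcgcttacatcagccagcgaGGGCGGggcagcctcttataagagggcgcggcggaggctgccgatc
Slc1a2, chr2:102706188-102706437, plus strand: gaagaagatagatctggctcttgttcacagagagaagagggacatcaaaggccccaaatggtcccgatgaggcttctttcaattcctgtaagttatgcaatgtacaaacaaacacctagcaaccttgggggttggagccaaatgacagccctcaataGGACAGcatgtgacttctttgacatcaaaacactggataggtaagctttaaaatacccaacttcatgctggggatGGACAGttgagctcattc
Cplx2, chr13:54302306-54302555, plus strand: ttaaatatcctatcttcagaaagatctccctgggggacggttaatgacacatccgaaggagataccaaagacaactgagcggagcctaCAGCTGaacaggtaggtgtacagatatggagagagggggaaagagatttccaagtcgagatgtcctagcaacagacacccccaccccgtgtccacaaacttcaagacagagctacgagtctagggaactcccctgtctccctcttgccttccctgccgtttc
The 8 matched genes had 11 promoters. A gene was counted if any of its promoters held the motif, whereas the shares of all are over single promoters, so the 2 are unlike units. The GC box was found in the 300-base window (250 before and 50 after the start) of 5 of the 8 matched genes and in 35.7% of all promoters. The left and right RE1 parts joined, 2 bases apart and in that order, were in the window of 0 of the 8 and in 0.0365% of all. CAGCACC stood in 1 of the 8, the Tubb3 promoter, and in 7.14% of all, GGACAG in 2 of the 8 and in 22.2% of all, and CAGCTG in 2 of the 8 and in 16.3% of all; no match overlapped one of another motif. The E-box and the RE1 parts also had matches in the 50 bases after the start that are not shown. These letters describe the windows and say nothing of binding.

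**Figure D1:**
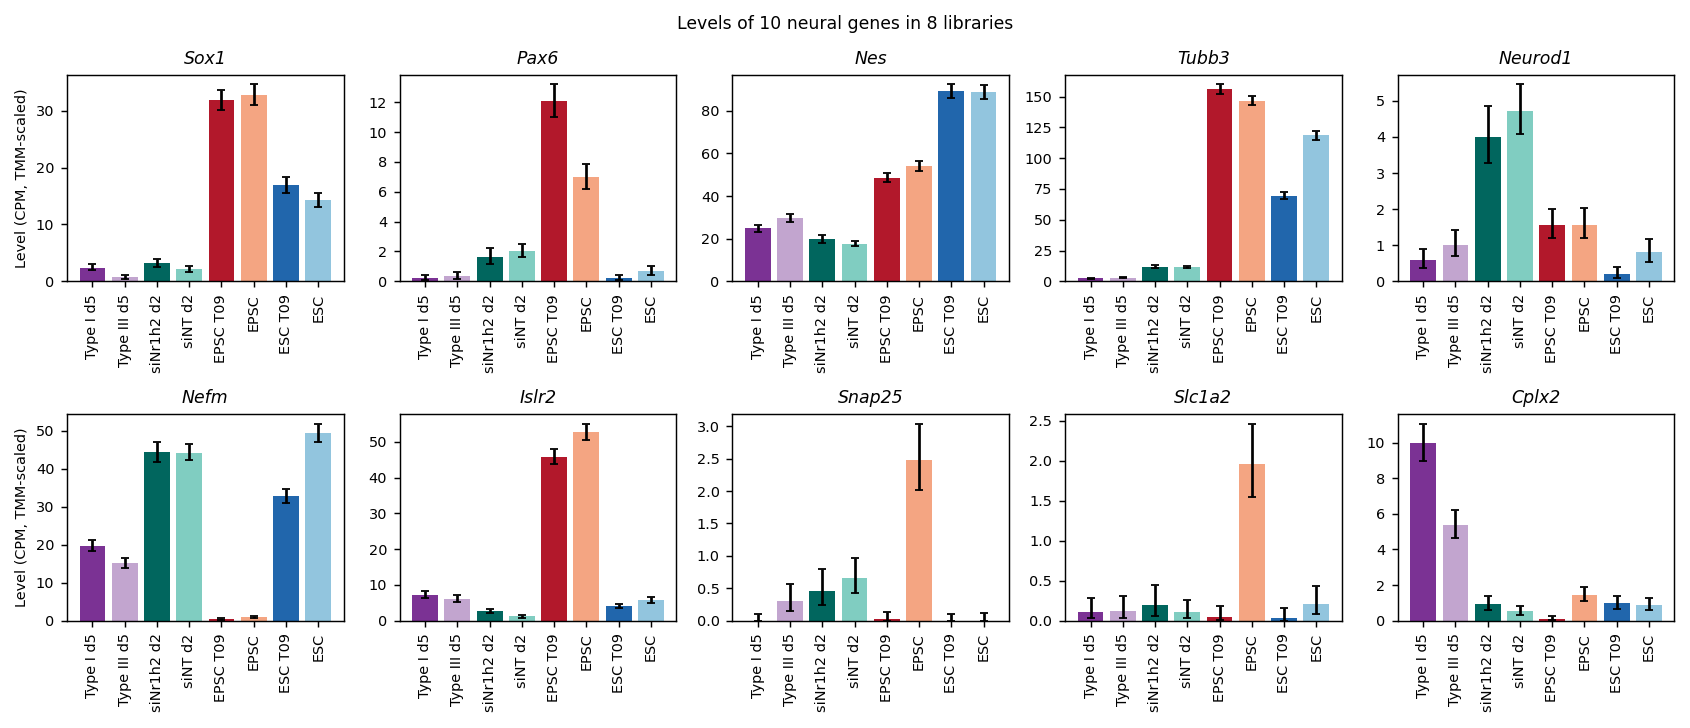
Level of each of the 10 genes in CPM (TMM-scaled, linear axis from 0, own scale per gene) in the 8 libraries, with 95% exact Poisson intervals for counting error as bars. Sox1, Tubb3, Pax6 and Islr2 are highest in EPSC, Nefm is low in both EPSC libraries, Snap25 and Slc1a2 stand out in untreated EPSC, and Cplx2 in day 5 blastoids.

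Sox1 and Pax6 were highest in EPSC. Sox1, which encodes an early neuroectoderm factor of the SoxB1 group, stood at 2.40 CPM in Type I, 0.730 in Type III, 3.17 in siNr1h2 and 2.11 in siNT blastoids, 31.8 in T09-treated EPSC and 32.8 in EPSC, and 16.9 in T09-treated ESC and 14.3 in ESC. Both EPSC libraries lay above both ESC libraries, and all 4 blastoid libraries lay below the 4 stem cell libraries. Pax6, the paired-box factor of forebrain and eye, stood at 0.195, 0.335, 1.64 and 2.03 CPM in Type I, Type III, siNr1h2 and siNT blastoids, at 12.1 and 6.99 CPM in T09-treated and untreated EPSC, and at 0.223 and 0.693 CPM in T09-treated and untreated ESC. Day 2 blastoids therefore held Pax6 between the EPSC and the ESC levels, and day 5 blastoids held it near the ESC levels, on 7 and 11 counts. Neurod1, a bHLH factor of neuronal and endocrine differentiation, had another order, with its 2 highest levels in day 2 blastoids. It stood at 0.585, 1.00, 4.00 and 4.73 CPM in Type I, Type III, siNr1h2 and siNT blastoids, 1.56 and 1.57 in T09-treated and untreated EPSC, and 0.195 and 0.814 in T09-treated and untreated ESC. The day 2 intervals (3.28 to 4.85 and 4.07 to 5.46 CPM) overlapped each other and lay above the rest.

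The cytoskeletal genes did not share 1 pattern. Tubb3, the neuron-type beta tubulin, stood at 2.45 and 3.07 CPM in Type I and Type III, 12.0 and 11.5 in siNr1h2 and siNT blastoids, 156 and 147 in T09-treated and untreated EPSC, and 69.5 and 118 in T09-treated and untreated ESC. Its order was thus EPSC, ESC, day 2 and day 5, with the siNr1h2 and siNT intervals overlapping, as did those of Type I and Type III. Nes, the progenitor filament nestin, was highest in ESC, at 24.8, 29.8, 19.9 and 17.7 CPM in Type I, Type III, siNr1h2 and siNT blastoids, 48.6 and 54.0 in T09-treated and untreated EPSC, and 89.3 and 88.7 in T09-treated and untreated ESC. It had the narrowest range of the 10 genes, 5.05-fold from lowest to highest. Nefm, the medium neurofilament subunit, was like Nes lower in both EPSC libraries than in both ESC libraries, unlike Tubb3. It stood at 19.7, 15.1, 44.4 and 44.3 CPM in Type I, Type III, siNr1h2 and siNT blastoids. Nefm stood at 0.420 and 0.890 CPM in T09-treated and untreated EPSC, and at 32.9 and 49.4 CPM in T09-treated and untreated ESC. Its highest level was 118 times its lowest, and the 2 lowest were both EPSC.

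Islr2, which encodes a leucine-rich repeat membrane protein that acts in axon guidance in mouse, was nearly the mirror of Nefm. It stood at 7.24, 6.14, 2.63 and 1.17 CPM in Type I, Type III, siNr1h2 and siNT blastoids, 45.8 and 52.8 in T09-treated and untreated EPSC, and 4.05 and 5.73 in T09-treated and untreated ESC. The day 5 and ESC levels were close to each other, and day 2 blastoids were lowest.

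Snap25 and Slc1a2 were near the detection limit of most libraries, which for 0 counts lies at 0.0741 to 0.114 CPM (3 counts of the scaled total). Snap25, the SNARE protein of vesicle fusion, had 0, 10, 12 and 26 counts in Type I, Type III, siNr1h2 and siNT blastoids, 1 and 95 in T09-treated and untreated EPSC, and 0 in both ESC libraries. Slc1a2, the main glutamate transporter of astrocytes, had 4, 4, 5 and 4 counts in Type I, Type III, siNr1h2 and siNT blastoids, 2 and 75 in T09-treated and untreated EPSC, and 1 and 7 in T09-treated and untreated ESC. For both genes the untreated EPSC library was far above the other 7, at 2.49 CPM for Snap25 and 1.96 for Slc1a2. Cplx2, a complexin that clamps and times vesicle fusion, had 358, 177, 25 and 21 counts in Type I, Type III, siNr1h2 and siNT blastoids, 4 and 56 in T09-treated and untreated EPSC, and 35 and 30 in T09-treated and untreated ESC. Its day 5 levels of 9.97 and 5.38 CPM were the 2 highest.

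Set per kilobase of annotated exon (GENCODE M21, a later build than the counts), Tubb3 led the 10 genes in untreated EPSC and ESC, at 78.6 and 63.4 CPM per kilobase. In EPSC Islr2 came next at 10.7, followed by Nes at 8.82 and Sox1 at 6.78, while Nefm was last at 0.154. In siNT blastoids Nefm led at 7.66 CPM per kilobase, above Tubb3 at 6.15, and in Type I blastoids Nes led at 4.05, above Nefm at 3.41 and Cplx2 at 2.02. Nefm and Nefl overlap on opposite strands in that annotation, and the counting strand is not stated, so reads between them may be shared. Pax6os1 and Gm13872, antisense to Pax6 and Slc1a2, had 0 counts in all 8 libraries.

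**Figure D2:**
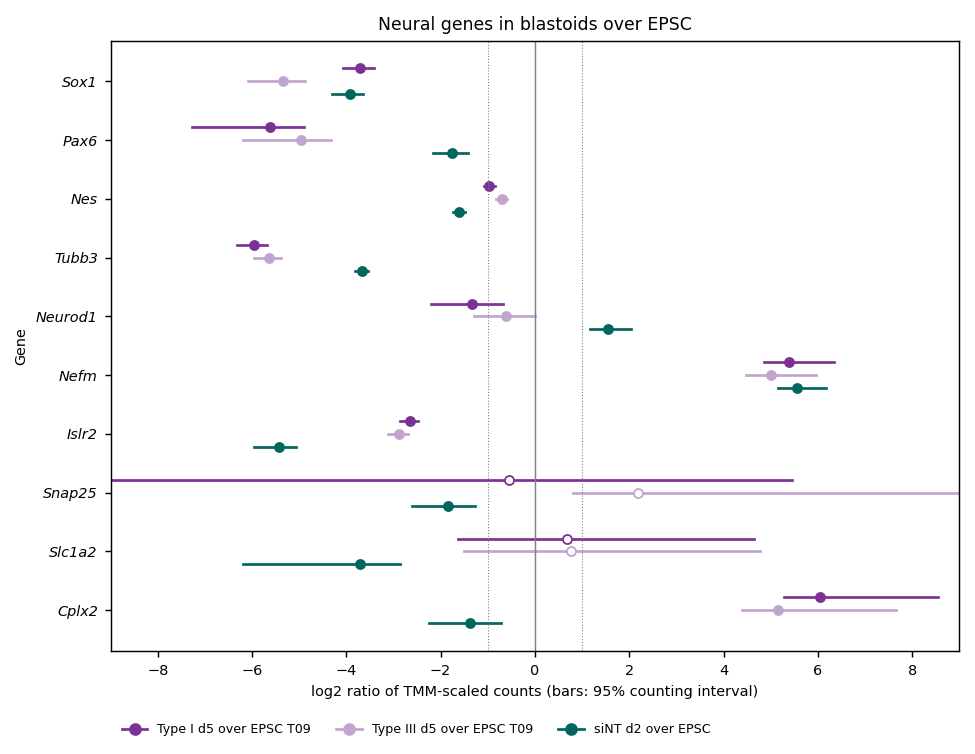
Log2 ratio of each gene in blastoids over their EPSC source (3 comparisons, TMM-scaled, prior count 2), with 95% counting intervals as bars, cut at the axis limits, and dotted lines at 2-fold. Open points had under 20 counts in both libraries. Sox1, Pax6, Tubb3 and Islr2 lie to the left of -1 in all 3 comparisons and Nefm to the right of 1.

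The blastoids addressed how neural genes stand once EPSC have formed blastocyst-like aggregates. Sox1, Pax6, Tubb3 and Islr2 were called lower in all 3 comparisons with the EPSC source, and Nefm was called higher in all 3. In Type I blastoids over T09-treated EPSC, 2 of the 8 genes with enough counts were higher and 5 lower; over all genes 40.8% were called, 22.7% higher and 18.1% lower. Tubb3 was 63.6-fold lower (log2 -5.96, interval -6.31 to -5.69), Pax6 61.9-fold lower on 7 counts against 489, and Sox1 13.3-fold lower. Cplx2 was higher by a log2 ratio of 6.05 (interval 5.29 to 8.54), on 358 counts against 4, and Nefm 47.0-fold higher. In Type III blastoids 2 of 8 were higher and 4 lower, with 37.7% of all genes called, 21.7% higher and 16.0% lower. Sox1 was 43.6-fold lower there, Tubb3 50.8-fold lower, Cplx2 54.5-fold higher and Nefm 35.9-fold higher. Nes was not called in either, with ratios of -0.97 in Type I, which counted as a call under library totals, and -0.70 in Type III.

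In day 2 siNT blastoids over untreated EPSC, 2 of 10 were higher and 8 lower, with 25.8% of all genes called, 14.5% higher and 11.3% lower. Islr2 was 45.1-fold lower (log2 -5.44, interval -5.95 to -5.08), Sox1 15.5-fold, Tubb3 12.8-fold, Pax6 3.44-fold and Nes 3.06-fold. Neurod1 was 3.01-fold higher (log2 1.56, interval 1.16 to 2.03) and Nefm 49.7-fold higher. Snap25, Slc1a2 and Cplx2 were lower as well, but these 3 rest on the untreated EPSC library; in the day 5 comparisons, which use T09-treated EPSC, Snap25 and Slc1a2 had too few counts to be called and Cplx2 was higher. The median ratio of the genes with enough counts was -1.99 in Type I, -1.80 in Type III and -1.80 in siNT, beside medians over all genes of -0.03, 0.00 and -0.04. The rule chose genes that were low in blastoids, so nothing is read from those medians or counts. Primitive endoderm and trophectoderm markers moved with these differences. All 12 primitive endoderm genes were called higher in each of the 3 comparisons, and of 11 trophectoderm genes 7, 7 and 8 were higher in Type I, Type III and siNT. Of 12 naive pluripotency genes 8, 8 and 6 were lower. The part of cell make-up in the neural ratios was not tested.

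Other genes of the same families moved in both directions. Among the close relatives, Sox2, the SoxB1 gene shared by pluripotent and neural cells, stood at 22.9, 62.2, 250 and 267 CPM in Type I, Type III, siNr1h2 and siNT blastoids, against 449, 403, 398 and 393 CPM in T09-treated EPSC, EPSC, T09-treated ESC and ESC. Sox3, the other SoxB1 gene, was higher in blastoids, at 3.35 to 6.66 CPM in the 4 libraries, against 0.815 to 2.05 CPM in the stem cells. Of the neural progenitor factors measured besides Sox1 and Pax6, 9 of 19 were higher and 7 lower in Type I over T09-treated EPSC, 9 of 20 were higher and 7 lower in Type III, and 6 of 17 were higher and 3 lower in siNT over EPSC. Proneural and neuronal factors besides Neurod1 had 4 of 7 higher and 2 lower in Type I, 3 of 6 higher and 1 lower in Type III, and 6 of 8 higher and 0 lower in siNT, those in siNT including the LIM factor gene Lhx1 (log2 3.91) and Insm1, a zinc-finger gene of neuroendocrine cells (log2 3.04). The tubulin gene Tubb2b and the tau gene Mapt were lower beside Tubb3, with Tubb2b at 39.3 CPM in siNT, against 405 CPM in EPSC (log2 -3.36), and Mapt at 3.25 CPM, against 33.3 CPM (log2 -3.33). Rest, the repressor of neuronal genes outside the nervous system, was itself lower, at 122 CPM in siNT, against 312 CPM in EPSC (log2 -1.36), and at 65.6 and 70.6 CPM in Type I and Type III, against 211 CPM in T09-treated EPSC.

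**Figure D3:**
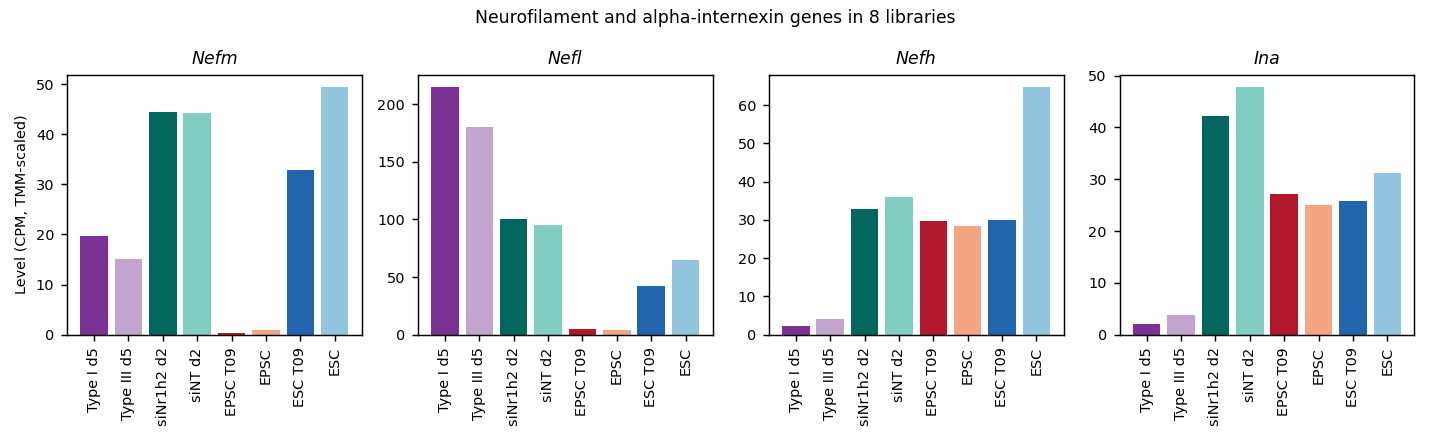
Levels in CPM (TMM-scaled, linear axes from 0, own scale per gene) of the neurofilament genes Nefm, Nefl and Nefh and of the alpha-internexin gene Ina in the 8 libraries, 1 library per bar. Nefm and Nefl are lowest in both EPSC libraries, and in day 5 blastoids Nefl is at its highest, whereas Nefh and Ina are at their lowest.

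Neurofilaments are built from light, medium and heavy subunits, with alpha-internexin as a partner, and their genes split into 2 patterns here. Nefl, the light subunit, stood at 215, 180, 100 and 95.5 CPM in Type I, Type III, siNr1h2 and siNT blastoids, 4.57 and 3.77 in T09-treated and untreated EPSC, and 42.6 and 65.2 in T09-treated and untreated ESC. It shared with Nefm the low EPSC and high ESC levels, but was highest on day 5, where Nefm stood below its day 2 level. Nefh, the heavy subunit, stood at 2.34 and 4.02 CPM in Type I and Type III, and between 28.5 and 64.8 CPM in the other 6 libraries. Ina likewise stood at 2.12 and 3.77 CPM in Type I and Type III, and between 25.1 and 47.8 CPM in the rest.

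**Figure D4:**
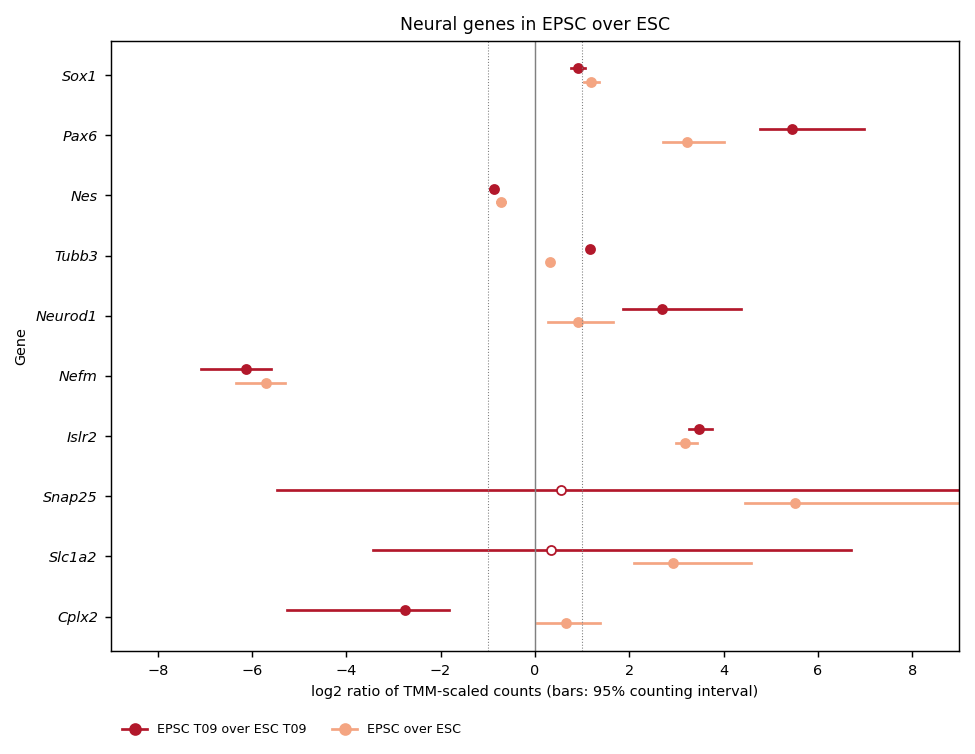
Log2 ratio of each gene in EPSC over ESC, in the T09-treated and in the untreated pair (TMM-scaled, prior count 2), with 95% counting intervals as bars, cut at the axis limits, and dotted lines at 2-fold. Open points had under 20 counts in both libraries, and Snap25 in the treated pair rests on 1 count. Pax6 and Islr2 lie to the right of 1 and Nefm to the left of -1 in both pairs.

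The EPSC and ESC libraries addressed how the 2 states differ. In untreated EPSC over untreated ESC, 5 of the 10 genes were called higher and 1 lower, with 17.6% of all genes called, 9.58% higher and 8.05% lower. In the T09-treated pair, which shares no library with it, 4 of 8 were higher and 2 lower, with 18.1% of all genes called, 8.35% higher and 9.79% lower. Pax6 and Islr2 were higher and Nefm lower in both pairs. Pax6 was 54.1-fold higher in the treated pair, on 489 against 8 counts (log2 5.46, interval 4.77 to 6.98). In the untreated pair it was 10.1-fold higher, on 267 against 23 counts (log2 3.23, interval 2.72 to 4.02). Islr2 was 11.3-fold higher in the treated pair and 9.21-fold higher in the untreated pair. Nefm was 78.3-fold lower in the treated pair (log2 -6.12, interval -7.07 to -5.60) and 55.5-fold lower in the untreated pair (log2 -5.71, interval -6.33 to -5.31). Sox1 stood either side of the 2-fold limit, at 0.91 in the treated and 1.20 in the untreated pair, as did Tubb3 at 1.17 and 0.31 and Neurod1 at 2.70 and 0.90. Nes had ratios of -0.88 and -0.72.

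The other calls depended on the pair. Snap25, with 95 counts in EPSC and 0 in ESC, was at least 27.5-fold higher there, and Slc1a2 was 9.31-fold higher (log2 2.92, interval 2.11 to 4.58). With T09 these 2 genes had 1 and 2 counts in EPSC, against 0 and 1 in ESC. Cplx2 had a ratio of 0.66 in the untreated pair and -2.77 in the treated pair (interval -5.26 to -1.82). The same held over the synaptic vesicle and SNARE list outside the 10 genes, where 9 genes were higher in the untreated pair, 3 in the treated pair and 2 in both. Over all genes the counts were 1327, 1145 and 775.

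State and T09 were also fitted together over the 4 stem cell libraries in edgeR (quasi-likelihood, 1 residual degree of freedom), which gave a test for the other neural genes. The counts below leave out the 10 genes, whose state differences chose them. At a Benjamini-Hochberg adjusted p of 0.05, 28.8% of 14477 genes passed for state, 14.3% higher and 14.5% lower in EPSC. Each state is 1 culture, so the fit does not cover the spread between derivations, and state cannot be told apart from medium and passage. Of 22 cytoskeletal genes tested, 9 rose and 4 fell. Nefl fell by 3.67 on the log2 scale (SE 0.216, adjusted p 5.26e-06 in edgeR), and Gap43, a growth cone gene, by 2.17 (SE 0.268, adjusted p 0.000352), whereas Nefh (log2 -0.61, adjusted p 0.0808) and Ina (log2 -0.13, adjusted p 0.552) did not pass. Prph, the filament gene of peripheral neurons, rose by 1.56, and Dpysl3, which acts in axon outgrowth, by 1.34. Of 17 progenitor factors 5 rose and 2 fell, with Sox21 up by 2.42 (SE 0.186, adjusted p 2.30e-05) and Irx3 by 1.96, and Pou3f3 down (log2 -1.92). Of 24 synaptic vesicle genes 6 rose and 2 fell; Cplx1, the complexin next to Cplx2 in function, rose by 3.06 (SE 0.351, adjusted p 0.000226), and Syn1, which tethers vesicles, fell (log2 -0.66). Of 12 glutamate genes 2 rose and 3 fell, with the neuronal transporter gene Slc1a1 up by 2.28 (adjusted p 7.78e-06) and the glial Slc1a3 by 1.70, and Gad1, which makes GABA, down (log2 -2.05).

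Of 17 neurite receptor and guidance genes 3 rose and 6 fell in the same fit. L1cam, an adhesion molecule of growing axons, rose by 3.38 (SE 0.341, adjusted p 0.000106), and the netrin gene Ntn1 and the neurotrophin receptor gene Ntrk3 fell (log2 -4.43 and -3.85). The proneural list had 2 of 5 higher, Insm1 and Ebf1, the neurotransmitter receptors 1 of 10 higher and 1 lower, the dense core granule genes 1 of 8 higher and 2 lower, and glial genes 3 of 8 higher and 1 lower. Among Id, Hes and Hey genes 2 of 8 rose and 2 fell. The REST corepressor list had 1 of 10 higher (Rcor3, log2 0.78) and 2 lower (Rcor2 and Kdm1a), and Rest did not pass (log2 -0.14, adjusted p 0.415). For comparison, the neural crest list had 0 of 5 higher and 2 lower, and the fibroblast list 1 of 6 higher and 2 lower. Beside a median of 0.00 over all genes, list medians were 0.60 for dense core granule genes, 0.36 for synaptic, 0.33 for cytoskeletal, 0.13 for receptor, 0.09 for progenitor and 0.04 for glial genes. They were -0.07 for glutamate, -0.10 for proneural and -0.14 for REST corepressor genes. They were -0.27 for Id, Hes and Hey genes, and -0.53 for neurite and guidance genes. Primitive endoderm markers moved with state, 7 of 11 higher and 1 lower in the fit, with summed levels of 475 and 762 CPM in T09-treated and untreated EPSC, against 261 and 287 CPM in T09-treated and untreated ESC; their part in the neural differences was not tested.

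**Figure D5:**
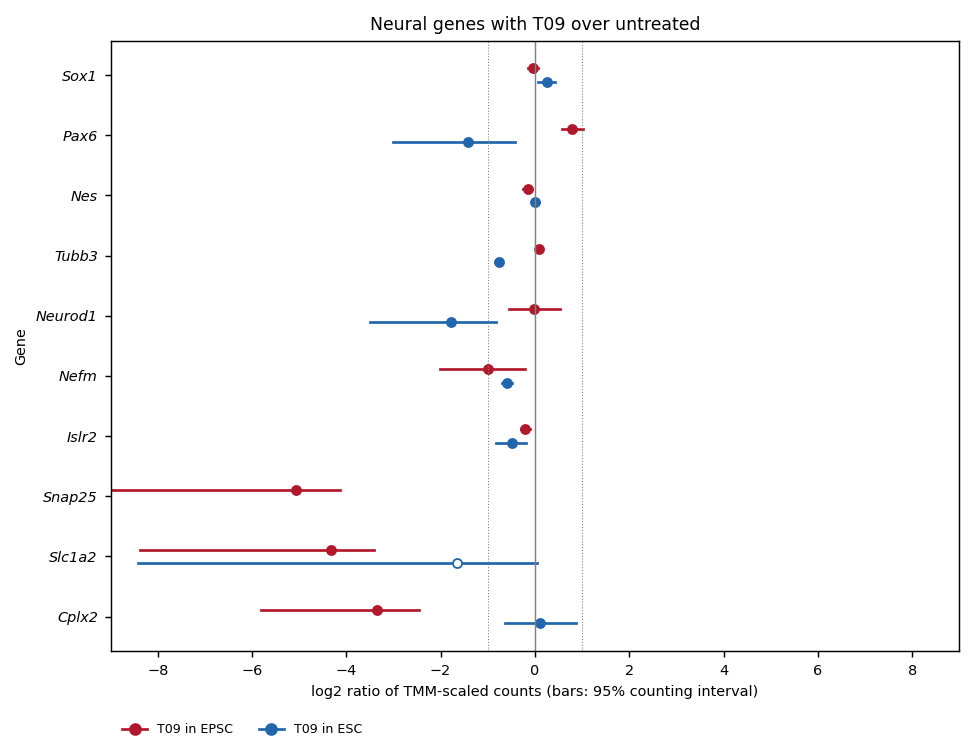
Log2 ratio of each gene with T09 over its untreated library, in EPSC and in ESC (TMM-scaled, prior count 2), with 95% counting intervals as bars, cut at the axis limits, and dotted lines at 2-fold. Open points had under 20 counts in both libraries, and Snap25 in ESC is left out because both libraries had 0 counts. Snap25, Slc1a2 and Cplx2 lie to the left of -1 in EPSC, and Pax6 and Neurod1 in ESC.

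The T09 libraries addressed what activation of LXR does to these genes. In EPSC, 3 of the 10 genes, Snap25, Slc1a2 and Cplx2, were called lower and 0 higher, with 4.19% of all genes called, 0.895% higher and 3.29% lower. Cplx2 was 14.8-fold lower (interval -5.82 to -2.45 on the log2 scale). Nefm, on 17 against 34 counts, fell just short of the limit (interval -2.02 to -0.20), which under library totals or a prior count of 0.5 counted as a call. Pax6 had a ratio of 0.78 (interval 0.57 to 1.01), and Sox1, Nes, Tubb3, Neurod1 and Islr2 had ratios between -0.20 and 0.09.

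In ESC, 2 of the 8 genes with enough counts were lower with T09 and 0 higher, with 3.91% of all genes called, 1.39% higher and 2.53% lower. Pax6 was 3.11-fold lower, on 8 against 23 counts (log2 -1.42, interval -3.01 to -0.42), and Neurod1 4.17-fold lower, on 7 against 27 counts (log2 -1.78, interval -3.50 to -0.82). The Pax6 call was lost with a prior count of 10. Tubb3 and Nefm were also lower, each by less than 2-fold, with ratios of -0.77 (interval -0.84 to -0.70) and -0.59 (interval -0.70 to -0.48), as was Islr2 at -0.50 (interval -0.82 to -0.18). Sox1 was higher at 0.25 (interval 0.07 to 0.42), Nes had a ratio of 0.01 (interval -0.06 to 0.08), and Cplx2 had a ratio of 0.10 (interval -0.63 to 0.86). In the edgeR fit over both states 0 genes of any of the neural lists passed for T09. They were absent from the 15 of 14477 genes (0.104%, 0.0898% higher and 0.0138% lower) that did. All 7 target genes on the LXR list rose, while the receptor genes Nr1h2 and Nr1h3 did not pass. In the same fit 879 genes had an unadjusted p under 0.05.

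Some other genes of neurons and glia were also called lower with T09 in EPSC, though most were not called. Of 25 synaptic vesicle genes with enough counts besides Snap25 and Cplx2, 6 were called lower and 0 higher, against 3.29% and 0.895% of all genes. Among them were Syt1, the calcium sensor of release, with 1 against 42 counts, Sv2b with 3 against 33, and Syn2 with 6 against 22. Neurotransmitter receptors had 3 of 10 lower (Grin2b with 1 against 23 counts), cytoskeletal genes 3 of 21, dense core granule genes 2 of 8, guidance genes 1 of 16 and progenitor factors 0 of 15. Of 5 glial genes measured 2 were lower, Mbp, a myelin gene, at 94 against 309 counts, and Pdgfra, which is also a primitive endoderm marker, at 94 against 181; the 14 glial genes summed to 38.0 CPM with T09 and 46.9 CPM without, and its defining markers Gfap and Aqp4 had 3 against 17 and 0 against 3 counts. Fibroblast genes had 3 of 5 lower and immediate-early genes, which respond within minutes to stimulation, 4 of 9. In ESC the synaptic list, again besides Snap25 and Cplx2, had 0 of 19 called with T09 and immediate-early genes 3 of 8 higher. The part of such cells, or of the library, in these ratios was not tested. Across the 8 libraries untreated EPSC was the highest for 7 of 26 synaptic genes outside the 10, beside 10.6% of all genes with at least 20 counts somewhere. Untreated ESC was the highest for 6 (13.2% of all genes), siNT for 5 (8.62%) and siNr1h2 for 4 (8.32%). Type I was the highest for 3 (22.5%), T09-treated EPSC for 1 (12.6%), and Type III and T09-treated ESC for 0 (14.2% and 9.89%).

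The siRNA libraries addressed what knockdown of Nr1h2 does in day 2 blastoids. Nr1h2 was partly reduced, to 37.7 CPM against 53.9 CPM in siNT. On the LXR list, which includes Nr1h2 itself and Nr1h3, 0 of 9 genes were called in either direction. Of the 9 neural genes with enough counts 1, Islr2, was called higher with siNr1h2 and 0 lower. Over all genes 3.66% were called, 1.49% higher and 2.17% lower. Islr2 was 2.25-fold higher, on 69 against 46 counts (log2 1.13, interval 0.61 to 1.74), and the call was lost with a prior count of 10. Sox1 had a ratio of 0.57 (interval 0.13 to 1.04), Nes 0.17 (interval 0.00 to 0.33), Tubb3 0.06 (interval -0.15 to 0.27), Nefm 0.00 (interval -0.10 to 0.11), Neurod1 -0.24 (interval -0.60 to 0.11) and Pax6 -0.30 (interval -0.88 to 0.24). The last 4 intervals included equality. Among the guidance genes, Slit1, which encodes a repellent ligand of growing axons, was also called higher, at 25 against 7 counts.

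Type I over Type III addressed whether the 2 kinds of day 5 blastoid differ. Of 7 genes with enough counts 1, Sox1, was higher in Type I and 0 lower, with 7.68% of all genes called, 1.93% higher and 5.75% lower. Sox1 was 3.28-fold higher, on 86 against 24 counts (log2 1.64, interval 1.05 to 2.43). Cplx2 had a ratio of 0.88 (interval 0.63 to 1.16) and Nefm 0.39 (interval 0.22 to 0.56), both higher in Type I by less than 2-fold, and Nes one of -0.26 (interval -0.40 to -0.13). Tubb3, Islr2 and Neurod1 had intervals that included equality. Sox2 went the other way to Sox1, at 22.9 CPM in Type I, against 62.2 CPM in Type III, and naive pluripotency genes were lower in Type I for 8 of 12. The neuronal filament gene Prph (log2 -1.55) and Stmn2, a microtubule gene of growing axons (log2 -1.30), were lower in Type I too. Of 21 cytoskeletal genes with enough counts besides Nes, Tubb3 and Nefm, 0 were higher and 3 lower. On the LXR list, whose sums are given above, 7 of 9 genes were higher in Type I, all but the receptor genes Nr1h2 and Nr1h3. The part of T09 in these differences was not tested.

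Over the 8 libraries Sox1 and Tubb3 were the most alike of the 45 pairs of these genes, with a Pearson r of 0.952 on the log2 scale (CPM plus 0.5), followed by Snap25 and Slc1a2 at 0.858, which rests on untreated EPSC. Nefm and Islr2 were the most opposed, at -0.943. Among 3171 other genes with at least 100 counts in 1 library and a range of at least 2 on that scale, the closest to Sox1 were Sema4b (0.990), Tmem184b (0.988) and Nectin1 (0.984). Those closest to Tubb3 were Myo1f (0.995), Mypn (0.993) and Zeb1 (0.993), and 13.8% of the 3171 exceeded 0.9 with it. Closest to Pax6 were Cyp2b23 (0.981), Csf2ra (0.976) and Tmem179 (0.967), to Islr2 Parvb (0.954), Paqr8 (0.949) and Rnf165 (0.949), and to Nes Hspb8 (0.986), Elobl (0.984) and Hoxc12 (0.983). Nefm ran closest to the T-box gene Eomes (0.981), Nkx1-2 (0.979) and Cask (0.972), Neurod1 to Inf2 (0.969), Rsph4a (0.968) and Dnmt3a (0.966), and Cplx2 to Mybpc3 (0.979), Syne1 (0.975) and Tgfbr2 (0.971). Snap25 had no gene above 0.9, its closest being Abca4 (0.789), Dpysl3 (0.779) and Acta2 (0.767), and neither had Slc1a2, with Dpysl3 (0.874), Rassf4 (0.872) and Sparcl1 (0.810). The points share lines, culture and libraries, so these values describe the set.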

How the data were processed

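RNA sequencing libraries were directional, per the labels' protocols. The authors deposited a table of whole-number counts, 24888 gene symbols by 8 libraries, with 0 columns of no sample; 5090 genes had 0 counts everywhere. STAR, Cuffnorm, HTSeq and mm9 were used, per the submitters' processing notes; versions, roles, annotation and strand setting are not given in the sources used here. From the counts, edgeR 4.0.16 in R 4.3.3 gave TMM factors and a quasi-likelihood fit of state plus T09 (filterByExpr, Benjamini-Hochberg). Both procedures were checked on simulated data. The simulated fit used a common dispersion and changed only well-counted genes. It therefore says nothing of spread between cultures or of low-count genes. Alternatives were RLE factors, library totals, no count minimum, prior counts of 0.5 and 10, no filter, DESeq2 1.42.0 and limma-voom (limma 3.58.1). The genes and 19 lists were chosen with earlier results of these data known. Named genes were the 10, close relatives, up to 3 called genes per list and comparison with the largest ratios, and defining markers; others (such as Sv2b, Syn2, Sox11, Rax and Dpysl3) were picked after their values were seen. Likeness ranked Pearson r on log2 (CPM plus 0.5), leaving out predicted genes. Reads carry no molecular identifiers, so copies of the same molecule could be counted more than once. The intervals treat each count as independent and do not cover this.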

Additional observations from a re-analysis of the deposited data

Results flagged for a closer look

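The T09 ratio of Pax6 had opposite signs in EPSC and ESC, each with a counting interval that excluded equality. It was 0.78 in EPSC (12.1 CPM with T09 and 6.99 CPM without) and -1.42 in ESC (0.223 and 0.693 CPM). Tubb3 also had opposite signs, with 0.0881 in EPSC (156 CPM with T09 and 147 CPM without) and -0.77 in ESC (69.5 and 118 CPM). With 1 library in each group the difference between the states was not tested for either gene, and the ESC value of Pax6 rests on 8 and 23 counts.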

How the results depend on the processing

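Replicates could not be paired or left out, because each group is 1 library and the labels carry no replicate numbers. The edgeR fit set T09 against untreated with state as a term. Counts of called genes that moved by over 1.5 times were, without a count minimum, 1045 for T09 in EPSC, 913 for T09 in ESC, 1134 for siNr1h2 and 1761 for Type I over Type III. With a prior count of 10 they were 342, 301 and 264 for the first 3. Of the 10 neural genes, a prior count of 10 left 1 call for T09 in ESC (Pax6 was lost) and 0 for siNr1h2 (Islr2 was lost), and no count minimum gave 2 for Type I over Type III, with Snap25 added on 0 against 10 counts. The T09 fit called 46 genes without a filter and 37 with DESeq2, against 15. Both scalings and a prior count of 0.5 left all 90 ratios of the 10 genes within their counting intervals; a prior count of 10 moved 13 outside, with no change of sign among called values. RLE factors left all 80 levels within their Poisson intervals and library totals 78, the others being Nefm in both day 2 libraries. Depth limits Snap25, Slc1a2 and, outside day 5, Cplx2.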

Other observations

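Id1, Id2 and Id3, which bind and block bHLH partners and respond to BMP signals, stood at 142, 142 and 86.5 CPM in Type I, 145, 118 and 87.5 CPM in Type III and 306, 92.5 and 186 CPM in siNT, against 20.8, 4.32 and 4.94 CPM in T09-treated EPSC and 9.69, 4.82 and 3.51 CPM in EPSC. Of a list of Id, Hes and Hey genes, 6 of 8 were called higher in Type I and in Type III over T09-treated EPSC, Hes6 included. Of all genes 22.7% and 21.7% were higher there. In siNT over EPSC 5 of 7 were higher, again with Hes6, beside 14.5% of all genes, and Hes1 was lower.

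Regional neural factors went both ways in day 5 blastoids. En1, a midbrain and hindbrain factor, stood at 7.16 and 6.33 CPM in Type I and Type III, against 0.0988 CPM in T09-treated EPSC. Six3, an anterior factor, had 41 and 27 counts, against 0, and Zic1, a neural plate factor, 62 and 55 counts, against 0. Sox11, a factor of immature neurons, had log2 ratios of 3.31 and 3.47. En2, the relative of En1, was lower, at 2.01 and 2.65 CPM in Type I and Type III, against 6.99 CPM in T09-treated EPSC, as were Gbx2, at 3.59 and 5.08 CPM against 27.9 CPM, Zic2, at 22.2 and 28.5 CPM against 61.2 CPM, and Zic5, Sox21 and the eye field gene Rax. These genes were picked after their values were seen.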
